A study of Mus musculus and Homo sapiens with 352 samples.

Results

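CH12-only CTCF peaks are peaks called in the mouse B cell lymphoma line CH12. They overlap no CTCF peak of B cells by 1 bp or more. There were 4141 of them among the 39437 CTCF peaks of wild-type CH12 cells, or 10.5%, with the mitochondrial chromosome left out. The other 35296 CH12 peaks overlapped a B cell peak and are the set beside which the CH12-only peaks are described. The members were chosen by the peak calls of these lists. Width, score, distance to B cell peaks and spacing are therefore descriptions. Use of the members in chromatin loops was measured in separate libraries. The loops were themselves placed on called CTCF peaks, so that use is not independent of peak calling.

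The CTCF peaks came from ChIP-seq, which sequences the DNA pulled down with an antibody. The CH12 list is a single list for 3 wild-type CH12 libraries, whose labels name 1 merged track. The B cell list held 59978 peaks of cells that its name gives as resting and activated B cells. Loops came from CTCF ChIA-PET. It pulls chromatin down with an antibody, ligates DNA ends that lie close together and sequences the joined pairs. One ChIA-PET library came from CH12 cells labelled CTCFmZF9to11, a CTCF mutation that the label places at zinc fingers 9 to 11, and 1 from wild-type (WT) CH12 cells. The mutant list held 11820 loops with 82222 tags between 12476 anchors, and the wild-type list 11534 loops with 74198 tags between 13547 anchors. A tag is 1 pair of ends, an anchor is 1 end of a loop, and each listed loop had at least 3 tags and spanned at most 2 Mb. The sources used here do not say whether either line was a single clone. No replicate check exists for any difference between the lists, and each is a difference between 2 libraries. The peaks were called in wild-type CH12 cells, and CTCF binding in the mutant cells was not analysed here.

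CTCF binds DNA through an array of zinc fingers, and the core of that array reads a motif that has a direction. Cohesin, a ring-shaped complex that extrudes loops of chromatin, is held up at CTCF sites. In mammalian cells loops form mostly between sites whose motifs point toward each other. Most strong CTCF sites are bound in many cell types, and weaker sites vary more between them.

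CH12-only peaks were mostly the weak and narrow end of the CH12 list. Their scores, the authors' value per peak, had a median of 141 (quartiles 109 and 206), against 465 (212 and 933) for the other CH12 peaks. Of the CH12-only peaks 93.8% scored below the median of the list, against 44.9% of the others. Divided into 10 equal classes of score, the lowest class held 1386 of the CH12-only peaks. They made up 35.1% of all peaks in that class. Their share fell with every step in score, to 6.64% in class 5 and 0.0507%, or 2 peaks, in class 10.

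The median width was 454 bp (quartiles 391 and 520) for CH12-only peaks and 599 bp (501 and 719) for the others. Much of that difference went with the score. Within each of score classes 1 to 9 the CH12-only median was lower by only 3.5 to 18 bp. In class 1 the medians were 392.5 bp for CH12-only peaks and 403 bp for the others, and in class 5 they were 540 bp and 555 bp. A few CH12-only peaks were very wide. Over 1 kb were 59 of them (1.42%), a smaller share than the 1373 of the others (3.89%). Over 2 kb were 10 of them (0.241%), against 22 of the others (0.0623%). The widest was on chromosome 11 (3030231 to 3038141 in mm9, the build of all coordinates here), at 7911 bp. The next were 6530 bp (chromosome 11, 3084195 to 3090724), 6022 bp (chromosome 17, 39979808 to 39985829), 4600 bp (chromosome 11, 3070286 to 3074885) and 2735 bp (chromosome 1, 87487447 to 87490181). None of these 5 lay at a loop anchor in either list.

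**Figure D1:**
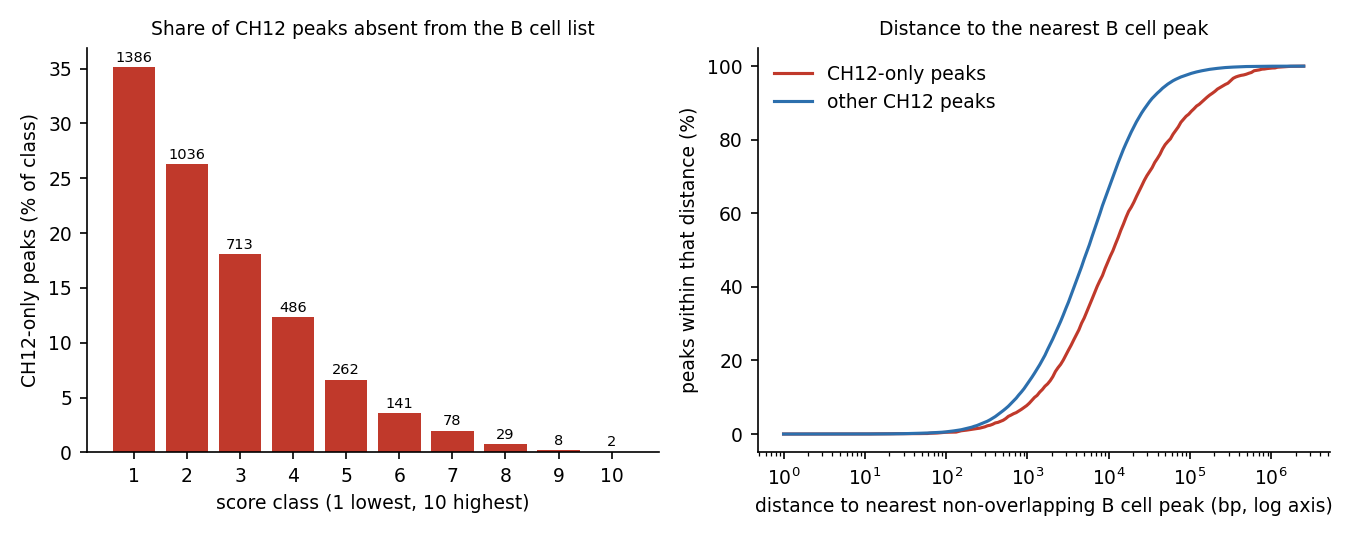
Left, the share of CH12 peaks that are CH12-only (percent of the class) in 10 equal classes of CH12 peak score, with the number of CH12-only peaks above each bar. Right, the cumulative share of CH12-only peaks (red) and other CH12 peaks (blue) against the distance to the nearest B cell peak that they do not overlap, on a log axis in bp. The bars fall from 35.1% in class 1 to 0.0507% in class 10, and the red curve lies right of the blue one.

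The 10 highest-scoring CH12-only peaks scored 1006.43 to 1393.29. The highest, on chromosome 13 (71387347 to 71388096), ranked above 90.5% of the CH12 list and lay 143 kb from the nearest B cell peak. It had 1 loop of 3 tags in the mutant list and 1 loop of 7 tags in the wild-type list. Of the other 9, the peak on chromosome 7 (136436628 to 136437222) had no mutant loop and 1 wild-type loop of 3 tags. The remaining 8 were at no anchor of either list. They include 1 peak on chromosome 10 (84851284 to 84852416, score 1342.11), 3 on chromosome 14 that start at 34785785, 118361373 and 49605252, 1 on chromosome 9 that starts at 43013276, and 1 on chromosome 18. High score and distance from B cell peaks did not always go together in these 10. The peak on chromosome 2 (32006176 to 32006885) lay 347 bp from a B cell peak, and that on chromosome 17 lay 309 kb from one.

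CH12-only peaks lay in regions with fewer B cell peaks. Their nearest B cell peak was a median of 11353 bp away (quartiles 3602 and 39902 bp). For the other CH12 peaks, the nearest B cell peak that they do not overlap was a median of 5478.5 bp away (1975 and 13756 bp). Beyond 100 kb from a B cell peak were 524 CH12-only peaks (12.7%), against 730 of the others (2.07%). Within 1 kb of one were 326 CH12-only peaks (7.87%), against 13.6% of the others. Within 250 kb on either side, the median number of B cell peaks was 17 around CH12-only peaks. Around the others it was 24, with the B cell peaks that they overlap, which the rule fixes, left out. The median number of other CH12 peaks in the same window was 11 around CH12-only peaks and 14 around the others. There were 223 CH12-only peaks (5.39%) with no B cell peak in the window, against 168 of the others (0.476%) with none but those they overlap. The B cell peaks nearest to CH12-only peaks had strengths like those of the list they came from. The authors' fold over background had a median of 6.59 for them and of 6.44 for all B cell peaks.

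Few peaks sat close to the limit that defines the set. CH12-only peaks within 100 bp of a B cell peak numbered 21, and 5 of the other peaks overlapped one by 100 bp or less. The nearest on the CH12-only side lay 5, 12, 15, 21 and 36 bp from one, where adjacent bases count as 1 bp apart. They were at 106264249 to 106264750 of chromosome 12 (score 99.93), 115460773 to 115461938 of chromosome 5 (347.18), 127898622 to 127898913 of chromosome 7 (93.15), 124958178 to 124958590 of chromosome 5 (110.41) and 47997466 to 47998248 of chromosome 6 (651.96). The smallest overlaps on the other side were 37, 40, 42, 77 and 88 bp. They were at 20789265 to 20789642 of chromosome 14 (score 160.18), 106063727 to 106064156 of chromosome 9 (103.78), 80377146 to 80377721 of chromosome 2 (118.74), 3180203 to 3180536 of chromosome 8 (100.61) and 84487036 to 84487418 of chromosome 3 (127.51). The median overlap of the other peaks was 488 bp, or 85.1% of the width of the CH12 peak, and 95.7% of them shared over 50% of their width with 1 B cell peak.

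The CH12-only share of a chromosome's CH12 peaks was highest on chromosome 14, at 15.2% (264 of 1735 peaks), and then 12.4% on both chromosome 18 and chromosome 13. The lowest shares were 7.81% on chromosome 19 (97 of 1242 peaks) and 8.62% on chromosome 7. Along the chromosomes, CH12-only peaks were more often next to each other than other peaks were next to them. The next CH12 peak was CH12-only for 21.4% of CH12-only peaks (95% Wilson interval 20.1 to 22.6; 883 of 4135) and for 9.21% of the others (8.91 to 9.52; 3250 of 35282), where it was 10.5% over all CH12 peaks. All intervals here cover counting error only and treat peaks or loops as independent.

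Most CH12-only peaks nevertheless stood alone. Joined to a neighbour where the gap was 50 kb or less, they formed 3353 groups, and 2793 peaks (67.4%) were in a group of 1. Groups of 3 or more numbered 135 and held 498 peaks, or 12.0% (11.1 to 13.1). The group with most members was at the start of the CH12 list on chromosome 9 (2999948 to 3038414), with 25 peaks in 38.5 kb. By peaks per kb it ranked 3 among the 135 groups, behind 2 groups of 4 peaks. They covered 28.2% of that stretch and had a median width of 270 bp. No other CH12 peak and no B cell peak lay among them, and the first B cell peak on that chromosome began 304 kb farther on. A group of 9 stood likewise at the start of chromosome 11 (3000033 to 3090724). It contained 3 of the 5 widest CH12-only peaks and had a median width of 2232 bp. Among its members lay 3 other CH12 peaks and 3 B cell peaks. Neither of these groups had a peak at a loop anchor. Whether these groups, or the 6022 bp peak on chromosome 17, lie in repeated sequence was not tested.

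The other large groups were within chromosomes. On chromosome X (47857242 to 47976568) there were 13 CH12-only peaks in 119 kb, with no other CH12 peak and 1 B cell peak. This group had 3 peaks at mutant anchors and 3 at wild-type anchors. Its loops joined CH12-only peaks to each other. The anchor at 47902832 to 47904019 was joined to 47970125 to 47970600 by 3 mutant tags and to 47972973 to 47973718 by 3 wild-type tags, and neither loop was in the other list. On chromosome 15 (101084430 to 101286696) the 8 CH12-only peaks of a group lay among 11 other CH12 peaks and 14 B cell peaks. It had no peak at an anchor in either list. The next size was 5 CH12-only peaks, in a tie of 6 groups. The one named by position, on chromosome 12 (113731818 to 113784002), held 2 other CH12 peaks and 3 B cell peaks. Of the 6 groups, the one on chromosome 5 (114440584 to 114518490) had 2 peaks at mutant anchors and none at a wild-type anchor, and the other 5 had no peak at an anchor.

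Runs of at least 3 CH12 peaks in a row that were all CH12-only numbered 172, with 644 peaks (15.6%). Of these runs 129 (75%) held no B cell peak either, which the rule favours, since no CH12-only peak overlaps one. No like shares of the other CH12 peaks were set beside the group and run shares. The longest run was the group of 25 on chromosome 9. The next was on chromosome X (46834072 to 47976568), where 15 CH12-only peaks followed each other over 1142 kb, with 1 B cell peak. On chromosome 14 (116959001 to 118231462) 9 followed each other over 1272 kb, on chromosome 1 (75738208 to 77511179) 8 over 1773 kb, and on chromosome 12 (29659521 to 30540345) 8 over 881 kb. None of these 3 runs held a B cell peak. The chromosome 14 run had 1 loop, in the wild-type list only. It had 3 tags and reached 1322 kb from the first CH12-only peak of the run to an anchor with another CH12 peak beyond its far end. The peaks of the chromosome 12 run had a median score of 325, above that of the CH12-only peaks as a whole, and none was at an anchor.

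**Figure D2:**
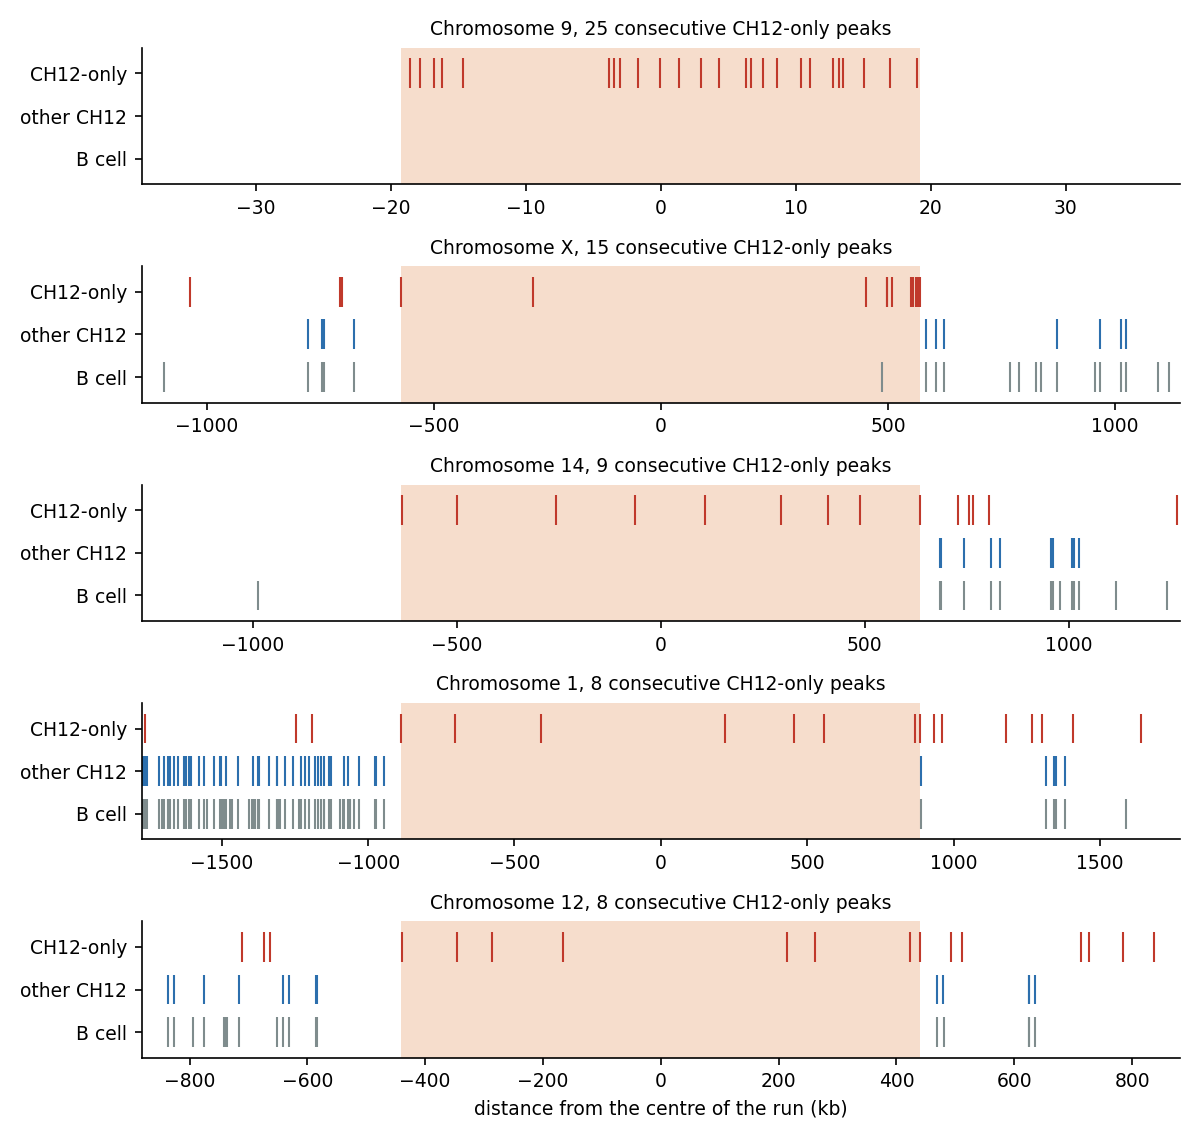
Positions of CH12-only peaks, other CH12 peaks and B cell peaks (a row of ticks each) around the 5 longest runs of CH12-only peaks, in kb from the centre of the run, with the run shaded. The shaded stretches hold 25, 15, 9, 8 and 8 CH12-only peaks, and only the one on chromosome X holds a B cell peak.

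CH12-only peaks were seldom used as loop anchors. In the mutant list 228 of 4141 (5.51%, 95% Wilson interval 4.85 to 6.24) overlapped an anchor, against 35.7% of the other CH12 peaks and 32.5% of all CH12 peaks. In the wild-type list 243 (5.87%, 5.19 to 6.63) did, against 38.7% of the others and 35.2% of all. The differences were -30.1 percentage points (95% Newcombe interval -31.0 to -29.3) in the mutant list and -32.8 (-33.6 to -31.9) in the wild-type list. Loops were placed on called CTCF peaks that hold a core motif, and the sources used here do not say which cells gave those calls. Motifs were not examined, so how far this placement sets the difference, also at like score, was not tested.

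Anchor use rose with the peak score in both sets, for CH12-only peaks up to class 8, so the comparison was repeated at like score. Weighted to the score classes of the CH12-only peaks, 13.7% of the other peaks were at a mutant anchor and 16.0% at a wild-type anchor. The CH12-only shares differed from these by -8.22 points (95% interval -9.10 to -7.35) in the mutant list and -10.2 points (-11.1 to -9.25) in the wild-type list. That is 0.401 of the share of other peaks of like score in the mutant list and 0.366 in the wild-type list. The difference therefore remained at like score, at a smaller size. Without the weighting it had the same sign on 20 of 20 chromosomes in each list. With the weighting it did too, but there the rates of the other peaks came from all chromosomes together.

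By class, 2.96% of CH12-only peaks in the lowest class were at a mutant anchor, against 8.91% of the others, and 3.25% were at a wild-type anchor, against 9.97%. In class 6 the shares at a mutant anchor were 12.1% of CH12-only peaks and 31.4% of the others, and those at a wild-type anchor 15.6% and 36.7%. In class 7 they were 17.9% and 40.3% at a mutant anchor, and 16.7% and 45.6% at a wild-type anchor. The intervals of the CH12-only and the other peaks were apart in classes 1 to 7 of each list. In class 8, with 29 CH12-only peaks, they overlapped in the mutant list (37.9% and 50.6%) but not in the wild-type list (31.0% and 54.0%). Classes 9 and 10 held 8 and 2 CH12-only peaks. Of the 8 in class 9, 0 were at a mutant anchor and 1 at a wild-type anchor.

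**Figure D3:**
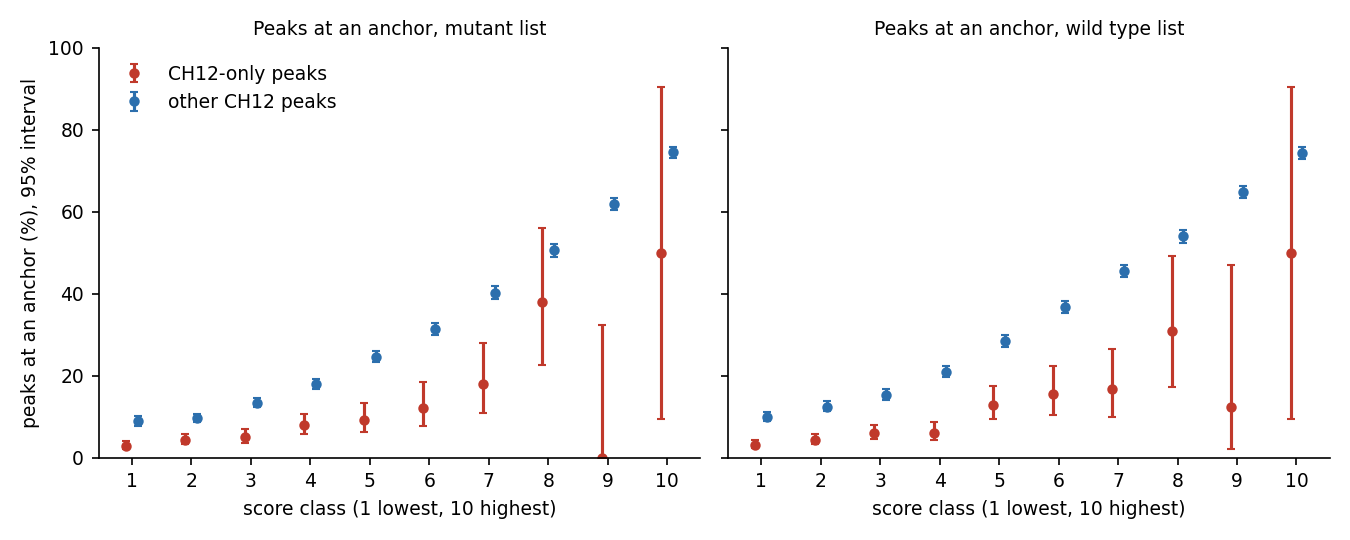
Share of peaks at an anchor (percent, with 95% Wilson intervals) by CH12 score class, for CH12-only peaks (red) and other CH12 peaks (blue), in the mutant list (left) and the wild-type list (right). Both shares climb with score up to class 8, and the red points drop in class 9. In classes 1 to 7 the red points lie below the blue ones with intervals apart.

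A smaller part of the CH12-only peaks in use was in use in both lists. At an anchor in either list were 381 (9.20%, 8.36 to 10.1), against 47.7% of the other CH12 peaks and 43.6% of all. At an anchor in both were 90 (2.17%, 1.77 to 2.66), against 26.6% of the others and 24.1% of all. Of the 381, 138 were at an anchor in the mutant list only, 90 in both and 153 in the wild-type list only. Those in both were thus 23.6% of those used, against 55.8% for the other CH12 peaks used. Weighted to the score classes of the 381, the share of other peaks in use that were in both lists was 38.2%. The CH12-only share differed from that by -14.6 points (95% interval -19.1 to -10.1), so much of the gap went with the score. The 381 had a median score of 186 and a median width of 496 bp. The 3760 at no anchor had medians of 138 and 449.5 bp.

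Counting any anchor, use was highest within 1 kb of a B cell peak, but mostly at anchors that also held another CH12 peak. Of the 326 CH12-only peaks within 1 kb of a B cell peak, 34 (10.4%) were at a mutant anchor and 36 (11.0%) at a wild-type anchor. Of these, 24 of the 34 and 25 of the 36 were at an anchor that also held another CH12 peak. The higher share there can therefore not be credited to the CH12-only peaks. From 1 to 10 kb away, 4.79% were at an anchor in each list. From 10 to 100 kb the shares were 5.53% in the mutant list and 5.65% in the wild-type list, and beyond 100 kb they were 4.58% and 6.68%. The intervals of these 3 distance classes overlapped in each list. CH12-only peaks at no anchor were also farther from one than the other peaks at no anchor were. The median distance to a mutant anchor was 49.3 kb for CH12-only peaks and 33.5 kb for the others, and that to a wild-type anchor 45.8 kb and 32.9 kb.

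Anchors that held CH12-only peaks and no other CH12 peak numbered 201 in the mutant list (1.61% of its anchors) and 215 in the wild-type list (1.59%). A further 25 mutant and 26 wild-type anchors held peaks of both kinds, and these were left out of what follows, since their loops cannot be credited to the CH12-only peak. Anchors with CH12-only peaks alone were narrow, with median widths of 567 bp in the mutant list and 602 bp in the wild-type list. Anchors with other CH12 peaks alone had medians of 1083 bp and 1078 bp. They often had a start or end identical to that of a CH12 peak, 139 of the 201 (69.2%) in the mutant list and 131 of the 215 (60.9%) in the wild-type list. This was so for 15.5% and 14.9% of the anchors with other CH12 peaks alone. None of the CH12-only anchors had a bound identical to that of a B cell peak. Few anchors with other CH12 peaks alone did, 0.0996% in the mutant list and 0.138% in the wild-type list. In each list 2 CH12-only anchors overlapped a B cell peak, an overlap that the rule makes rare. Anchors with no CH12 peak at all numbered 196 in the mutant list and 218 in the wild-type list. Of these, 168 (85.7%) and 192 (88.1%) overlapped a B cell peak. In the other list, 70 of the 201 mutant anchors (34.8%, 28.6 to 41.6) and 70 of the 215 wild-type anchors (32.6%, 26.6 to 39.1) were found again. Anchors with other CH12 peaks alone were found again in 74.3% and 68.4% of cases. These shares were not adjusted for the CH12 score or for the difference in anchor width.

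The CH12-only anchors made few loops, and mostly 1 loop each. They took part in 250 mutant loops, 2.12% of the list, with 1185 tags. They took part in 234 wild-type loops, 2.03% of that list, with 969 tags. An anchor with CH12-only peaks had a mean of 1.27 partners in the mutant list and 1.13 in the wild-type list, where anchors with other CH12 peaks alone had 1.92 and 1.72. A single partner was seen for 78.1% (71.9 to 83.3) of the CH12-only anchors and 49.9% of the others in the mutant list. The wild-type shares were 88.8% (83.9 to 92.4) of the CH12-only anchors and 56.3% of the others. At least 3 partners were seen for 7 CH12-only anchors in the mutant list (3.48%, 1.70 to 7.01), against 23.1% of the others, and for 4 in the wild-type list (1.86%, 0.726 to 4.69), against 17.5%. All partners lay on 1 side for 4 of the 7 mutant anchors, where this was so for 57.4% of the others with at least 3 partners. It was so for 3 of the 4 wild-type anchors, against 66.4% of the others. None of these comparisons of partners was weighted to the CH12 score.

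The other end of these loops held only other CH12 peaks in 241 of the 250 mutant loops (96.4%) and 221 of the 234 wild-type loops (94.4%). Such ends were 97.7% of all loop ends in each list. Ends with CH12-only peaks alone were 1.08% of all loop ends in the mutant list and 1.05% in the wild-type list. Loops with CH12-only peaks alone at both ends numbered 5 in the mutant list (2% of the 250) and 9 in the wild-type list (3.85% of the 234). Of these, 2 were in both lists. One was between 94202719 to 94203494 and 94293381 to 94294409 of chromosome 15, with 10 mutant and 8 wild-type tags over 90.8 kb. The other was between 115340440 to 115341403 and 115930939 to 115931420 of chromosome 2, with 3 mutant and 4 wild-type tags over 590 kb.

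The loops had few tags, and their median spans were close to those of other loops. The median was 4 tags per loop in the mutant list (mean 4.74, highest 31) and 3 in the wild-type list (mean 4.14, highest 14). Loops without a CH12-only anchor had medians of 5 and 4 tags and means of 7.00 and 6.48. At the minimum of 3 tags were 45.2% of the CH12-only loops in the mutant list, against 30.9% of the others. Weighting the others to the CH12 score of the weaker end gave 36.4%, a difference of 8.79 points (95% interval 2.38 to 15.2). In the wild-type list the shares were 55.6% and 32.6%, or 38.2% after weighting, a difference of 17.4 points (10.8 to 23.9). The excess of loops at the minimum was therefore larger than counting error at like score in each list. The median span was 148 kb (114 to 185) in the mutant list, against 153 kb (149 to 156) for the others, and 142 kb (118 to 171) in the wild-type list, against 130 kb (128 to 133). The interval of each CH12-only median held the median of the other loops. Spans of 400 kb or more made up 19.6% of the CH12-only loops and 15.2% of the others in the mutant list, a difference of 4.45 points (95% Newcombe interval -0.0457 to 9.85). In the wild-type list they made up 14.5% and 11.7%, a difference of 2.85 points (-1.14 to 7.97).

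Fewer of these loops were found in both lists. Of the 250 mutant loops 63 (25.2%, 20.2 to 30.9) were in the wild-type list, against 46.1% of the other mutant loops and 45.7% of all. Of the 234 wild-type loops the same 63 (26.9%, 21.6 to 32.9) were in the mutant list, against 47.2% of the others and 46.8% of all. Loops with more tags were more often found in both lists, so the others were weighted to the tag classes of the CH12-only loops (3, 4, 5 to 9, and 10 or more). They then gave 37.8% in the mutant list and 37.0% in the wild-type list. The CH12-only loops stayed below them, with differences of -12.6 points (95% interval -18.0 to -7.10) in the mutant list and -10.1 points (-15.9 to -4.34) in the wild-type list. The weighting did not cover anchor width or the CH12 score. Anchors could recur with identical bounds in both lists, as that at 124150163 to 124150733 of chromosome 14 did. Whether width bears on matching was not tested. Altogether there were 421 distinct loops, 187 in the mutant list only, 63 in both and 171 in the wild-type list only. The 63 had 383 mutant and 308 wild-type tags, and 31 had more tags in the mutant list, 14 the same number and 18 more in the wild-type list.

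**Figure D4:**
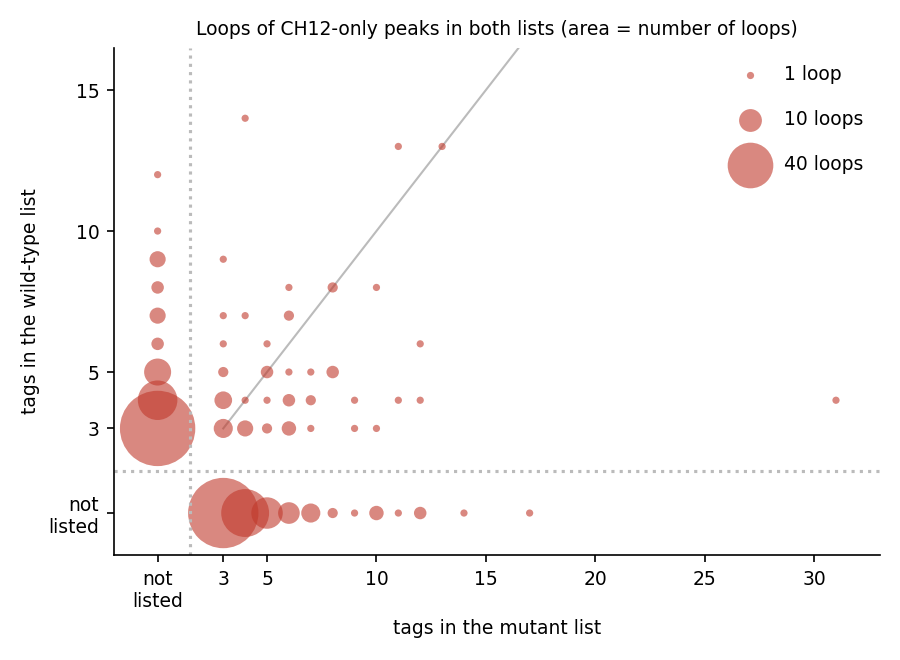
Tags of each CH12-only loop in the mutant list (horizontal) and the wild-type list (vertical), with the area of a point giving the number of loops at that position and a line of equal tags. Loops not listed on one side, 187 in the mutant list only and 171 in the wild-type list only, outnumber the 63 in both, and the loop with 31 mutant tags stands apart.

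The CH12-only loop with most tags in the mutant list was on chromosome 7, between 35291320 to 35293493 and 35456571 to 35457756, 165 kb apart. It had 31 mutant tags and 4 wild-type tags. The next, between 101834666 to 101835184 and 101895681 to 101896908 of chromosome 15, had 17 mutant tags and was not in the wild-type list. The same chromosome 7 anchor was joined to 35223687 to 35224616 by 14 mutant tags, also without a listed wild-type loop. A loop of chromosome 15 (94202719 to 94203494 with 94350636 to 94351727) had 13 tags in each list and was among the 5 with most tags in both. Behind these 4, a tie of 5 mutant loops had 12 tags each. Those on chromosome 19 (44656742 to 44658007 with 44896714 to 44897228) and chromosome 9 (114427683 to 114428661 with 114489383 to 114493453) had 4 and 6 wild-type tags. The loop on chromosome 5 (114406125 to 114407221 with 114498853 to 114499346) and 2 more of the chromosome 7 anchor were not in the wild-type list.

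The CH12-only loop with most tags in the wild-type list was on chromosome 15 as well (53901167 to 53902254 with 54245323 to 54246000). It spanned 344 kb and had 4 mutant tags and 14 wild-type tags. A loop on chromosome 3 (15947223 to 15947765 with 15986268 to 15987290) had 11 mutant and 13 wild-type tags over 39.3 kb. The remaining 2 were not in the mutant list. They were on chromosome 8 (112796921 to 112797871 with 113002197 to 113003197), with 12 wild-type tags, and chromosome 6 (56016359 to 56017307 with 56426520 to 56427053), with 10. The CH12-only end did not always have the lower score, and that at 94202719 of chromosome 15 scored 755.43, against 292.56 for the other end of its 13-tag loop.

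The chromosome 7 anchor at 35291320 to 35293493 had the most partners of any CH12-only anchor in the mutant list. It was 2174 bp wide, held 2 CH12-only peaks with a highest score of 213.44, and lay 13183 bp from the nearest B cell peak. In the mutant list it had 5 partners, 3 to its left and 2 to its right, with 31, 14, 12, 12 and 4 tags, 73 in all. In the wild-type list it had 1 partner and 4 tags, and that partner was also the one with 31 mutant tags. The next was on chromosome 11. This anchor, at 3708067 to 3708633, had 4 partners, all to its right, with 18 tags, and no loop in the wild-type list. A tie of 5 mutant anchors had 3 partners each. The one named by position, on chromosome 11 (53323886 to 53324312), had 16 mutant tags, and in the wild-type list it had 1 partner with 5 tags. The other 4 had 10 to 26 mutant tags, the most at the chromosome 15 anchor at 94202719 to 94203494.

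No wild-type CH12-only anchor had over 3 partners, and 4 had 3. Of these, the anchor of chromosome 11 (3906255 to 3907138) had no mutant loop and 3 wild-type partners, all to its right, with 16 tags. One of its partners, at 3982968 to 3984150, was also a partner of the mutant anchor at 3708067. There it had 3 mutant tags, and from 3906255 it had 8 wild-type tags. The chromosome 15 anchor at 94293381 to 94294409 had 1 mutant partner with 10 tags and 3 wild-type partners with 8, 4 and 3 tags. The partner in both lists was the CH12-only anchor at 94202719. The chromosome 6 anchor at 30041172 to 30041549 had 1 mutant partner with 4 tags and 3 wild-type partners with 13 tags, all to its right. Each of the 6 anchors described with its partners in both lists had more of them in the list that named it, which the choice by partners favours.

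**Figure D5:**
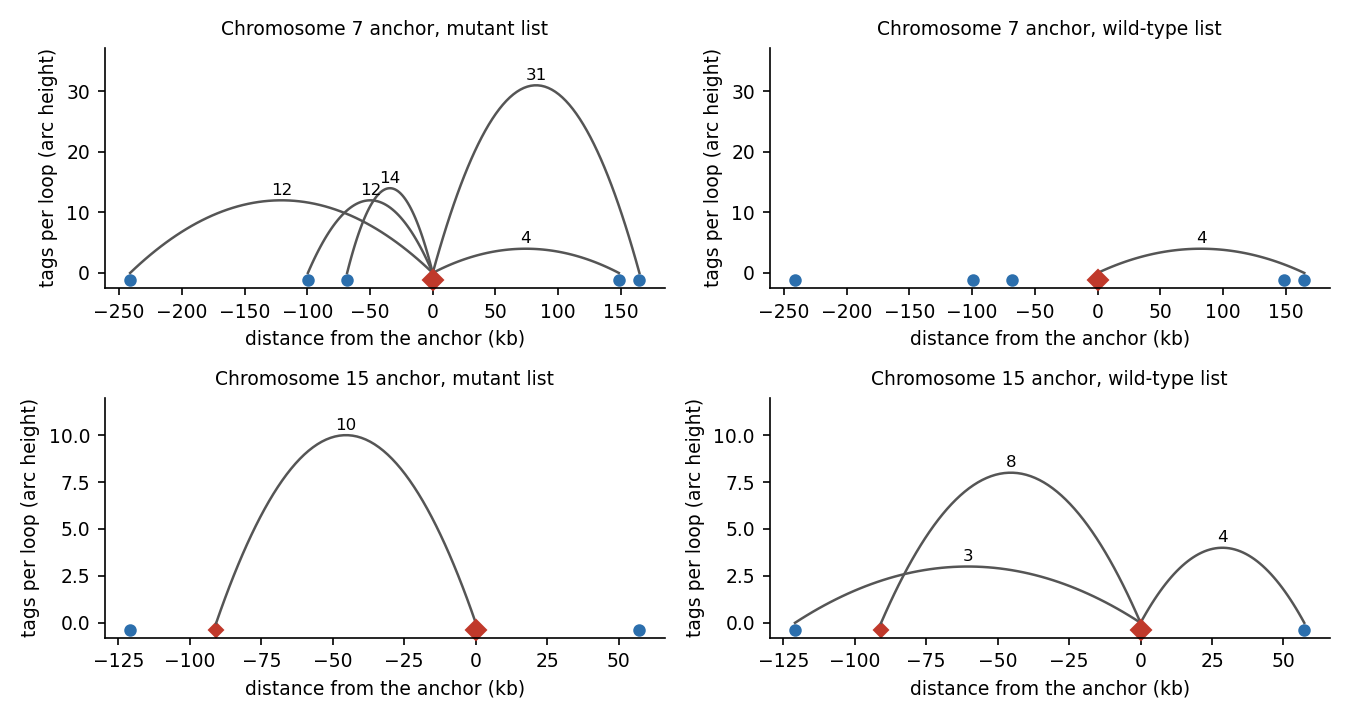
Loops of 2 CH12-only anchors, on chromosome 7 (top) and chromosome 15 (bottom), in the mutant list (left) and the wild-type list (right). The horizontal axis is the distance from the anchor in kb, and the height of an arc gives the tags of the loop. Red diamonds are CH12-only anchors and blue circles anchors with other CH12 peaks. The chromosome 7 anchor has 5 arcs in the mutant list and 1 in the wild-type list, and the chromosome 15 anchor 1 and 3.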

How the data were processed

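The members, comparisons and named regions were chosen with earlier results of these data known. For CH12 cells the authors deposited intervals named after MACS, each with 1 score. For B cells they deposited a narrowPeak list, whose columns used here were the fold over background and the −log10 of the q-value. The ChIA-PET lists hold counts of supporting tags per loop, and per the file headers each loop was placed on called CTCF peaks that hold a core motif, with 3 or more tags and a span of at most 2 Mb. Library depths are not given in the files, and listed tags do not sum to them. The submitters' processing notes name mm9 and, in no stated role, the tools BWA, bedtools 2.25, SAMtools 1.2, Bowtie 1.1.1 and CASAVA 1.8.2.

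A peak was at an anchor, and loops matched at both ends, when they overlapped by at least 1 bp. Span ran between anchor midpoints. Shares have Wilson 95% intervals, and differences have Newcombe or, after weighting over 10 score classes or tag classes, normal 95% intervals. No p-value was computed, since each genotype had 1 library. Named were the 10 highest-scoring and 5 widest CH12-only peaks, the 5 peaks nearest the limit on each side, the 5 largest groups and longest runs, and in each list the 5 loops with most tags and the 3 anchors with most partners, with ties by position. The steps were tested on simulated data and run in Python 3.11.15 (matplotlib 3.10.9, scipy 1.17.1, pandas 2.3.3 and numpy 2.4.6). Sequences, motifs and gene or repeat annotation were not used here.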

Additional observations from a re-analysis of the deposited data

How the results depend on the processing

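No paired analysis was possible because each genotype had a single ChIA-PET library and each cell type a single peak list. Of 83 alternatives, 65 gave a value inside the 95% interval of the reported one (counts within 1.5 times), 18 moved and 0 changed sign. Dropping CH12 peaks that scored under their median left 258 CH12-only peaks, with a median width of 607.5 bp. Of these 16.7% were at a mutant anchor and 17.8% at a wild-type anchor, with differences from other peaks of like score of -20.5 and -24.3 points. With loops of 4 or more tags the shares were 3.43% (mutant) and 2.95% (wild type) and the differences -6.34 and -7.80 points. That limit left 137 mutant and 104 wild-type loops, each set with a median of 5 tags, by construction. Linking within 20 kb put 4.18% of the CH12-only peaks in groups of 3 or more, and within 100 kb 24.0%, by construction. Matching both ends within 10 kb, a looser rule, found 36.0% of the mutant loops and 40.2% of the wild-type loops in the other list. The loops without a CH12-only anchor were not set beside them under this rule. Using 20 score classes, and only anchors with no B cell peak, were chosen after seeing the data and moved nothing. The motif comparison was not run, since no mm9 sequence was used here. Loops under 3 tags are not listed, so a loop missing from a list is not shown to be absent, and a peak under the caller's threshold in B cells is not shown to be unbound.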
